A study of Mus musculus with 4 samples.

Results

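Axon guidance ligands and receptors are the signals, and the membrane proteins that read them, by which growing axons and migrating cells find their way. The genes described here were the rows of the deposited expression table whose symbols belong to the semaphorin, plexin, neuropilin, ephrin, Eph, Slit, Robo, srGAP, netrin, netrin-G, Unc5, Dcc, CRMP (Dpysl), repulsive guidance molecule (RGM), neogenin and FLRT families. They numbered 48 of 6940 listed genes, 23 of them ligands, 19 receptors, 1 a co-receptor and 5 cytoplasmic effectors. GENCODE release M21 holds 85 protein-coding genes of these families, of which 37 were not in the table and were not analysed here. Members were chosen by name alone, but every row of the table had an adjusted p under 0.05 in the authors' deposited table. All 48 members had therefore been called already, and the tests below are on the same libraries and are not independent of that call.

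Semaphorins bind plexins, often with a neuropilin as co-receptor, and plexins act on small GTPases and, through kinases and CRMP proteins, on the cytoskeleton. Ephrins are membrane-bound ligands of the Eph receptor tyrosine kinases, Slits bind Robo receptors, which recruit srGAP proteins, and netrins bind Dcc, neogenin and the Unc5 receptors. Beyond axons, several of these systems are known to steer the migration and differentiation of oligodendrocyte precursors, and myelin carries some of the ligands as inhibitors of axon growth.

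The libraries came from oligodendrocytes, the cells that make myelin, grown from the cortex of C57BL/6 mice at postnatal day 5 and purified with antibodies to GalC and O4. There were 2 control libraries, of genotype Zdhhc5fl/fl, and 2 conditional knockout (cKO) libraries, of genotype Olig1cre/+;Zdhhc5fl/fl. Both genotypes thus carried floxed alleles of Zdhhc5, a palmitoyltransferase gene. Cre, driven from the Olig1 locus and so active in the oligodendrocyte lineage, was present in cKO alone, and its effects and those of the altered locus cannot be told apart from loss of Zdhhc5. After 6 days of growth all cells spent 24 h in differentiation medium, where triiodothyronine (T3) was at 40 ng/mL, before RNA was taken. Zdhhc5 itself was not analysed here, and the labels do not state whether libraries of 1 genotype were separate cultures or animals, so the spread behind each p-value may be technical.

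Levels are normalised reads, meaning read counts divided by the authors' size factor of the library, and the listed genes held between 13672254 and 20068016 reads per library. Levels of different genes are compared only as normalised reads per kb of gene length. A log2 difference is the log2 fold change, cKO minus control on the log2(value + 1) scale, with limma's standard error (SE), and folds are ratios of mean normalised reads. A gene was called at a limma adjusted p under 0.05. With 2 libraries against 2, an exact permutation test of a single value cannot go below p = 0.333, so the p-values printed are those of limma, which pools the spread over genes.

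Of the lists of cell type markers, that of myelinating and newly formed oligodendrocytes was listed for 11 of 12 genes, all 11 lower in cKO, with a summed level of 410260 and 412450 normalised reads in the controls against 93415 and 96195 in cKO. Among all listed genes, each of which was called, 46.7% were higher and 53.3% lower. The precursor list had 8 of 10 genes listed, 7 of them lower, and a sum that went from 74309 and 74936 to 51960 and 50097. Olig1, whose own locus drives Cre in cKO, is among the 7 (12036 and 11945 against 7250 and 6438), and the part of the altered locus was not tested. Astrocyte markers were abundant in every library, with 11 of 12 listed and 9 of them higher. Their sum rose from 511353 and 512203 to 771559 and 764521, above the oligodendrocyte sum in all 4 libraries. Gfap alone held 351481 and 352111 normalised reads of the control sums, which without it would lie below the oligodendrocyte sums. Per kb, with Gfap included, the control sums were 116229 and 116393 for astrocyte markers against 90682 and 91164 for oligodendrocyte markers. In cKO they were 176009 and 174405 against 23056 and 23776. Pericyte and fibroblast markers had 11 of 12 listed, all 11 higher (sum 5343 and 5145 against 15021 and 14508), and microglia markers 5 of 12, all 5 higher (2686 and 2611 against 3770 and 3974). Neuron markers had 11 of 12 listed, 9 of them higher, and a sum of 18876 and 19184 against 18286 and 18086. Per kb of gene length that sum rose instead, from 2451 and 2524 to 3350 and 3324. Endothelial markers had 4 of 10 listed, 3 higher and 1 lower (median log2 difference 1.87). Their sums were 250 normalised reads or fewer in each library. These shifts moved with every result below, their part in those results was not tested, and in such bulk RNA fewer cells of a type and less RNA per cell cannot be told apart.

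Among the 48 genes, 25 were higher and 23 lower in the cKO cells, a share of 52.1% higher where the background over all listed genes was 46.7% called higher and 53.3% called lower. Most of the large changes were falls. At least 2-fold lower were 11 members (22.9% of 48), where the background was 11.7%, and at least 2-fold higher was 1 member, Efna3, where the background was 5.68%. The median log2 difference was 0.19 for the members and -0.22 for all listed genes. No member's control and cKO values overlapped, with 25 members separated upward and 23 downward, shares that stood beside 46.7% and 53.3% of all listed genes. Directions are relative to the authors' scaling. Relative log expression factors over the listed genes raised the median of all genes by 0.19, and removing the trend with GC content raised it by 0.22 and left 15 members higher and 21 lower (41.7% higher among the members called). Both were computed on genes that had already been called, and both draw the median of those genes to near 0 (-0.03 and -0.002). Turns and lost calls under them are relative to that centring. Of the 48 members, 29 kept their direction and their call in all 16 alternatives, 12 of them higher and 17 lower, and 8 turned in at least 1 alternative. The 16 include the fit without the filter, which all genes passed, and an adjustment over the listed genes only. Neither of these could turn a value or lose a call. The filter of at least 10 removed no member, and the replicate block could not turn a value in this balanced design. Calls kept without 1 library rest on 1 residual degree of freedom and do not measure the spread between replicates.

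**Figure D1:**
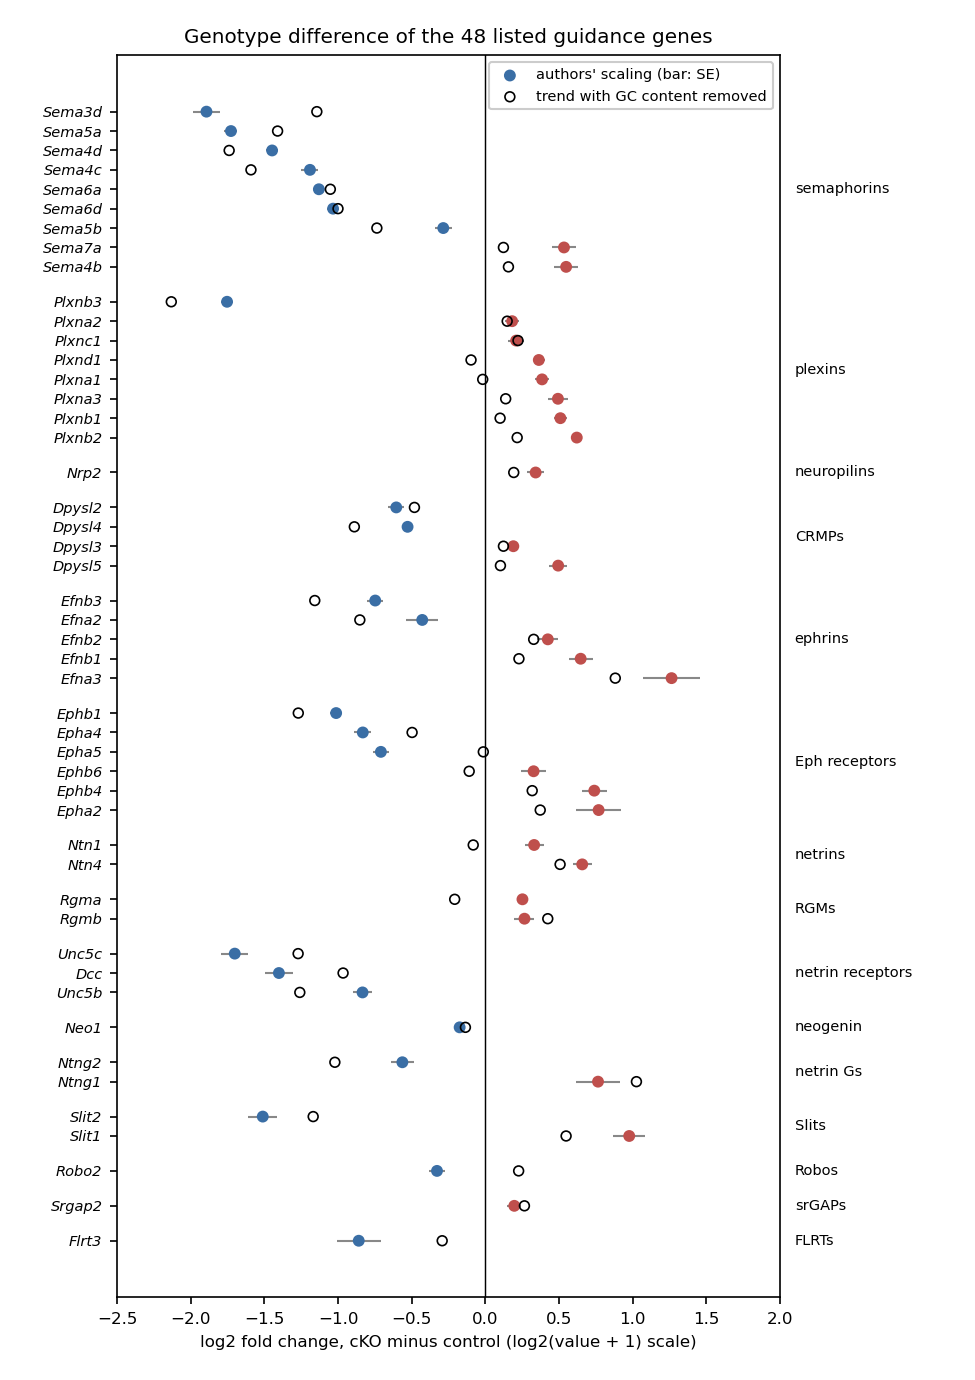
Log2 difference (cKO minus control, horizontal axis) of the 48 members by family, with filled points for the authors' scaling (bars: limma SE) and open points with the trend with GC content removed. Most semaphorins, Plxnb3 and the netrin receptors lie far to the left under both, while open points of several plexins lie near 0.

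Semaphorins were the largest ligand family here, and most of those listed were lower. Of 20 genes of the family 9 were listed, 7 lower and 2 higher, and the median log2 difference was -1.13, while 6 of the 7 fell at least 2-fold. Among all listed genes 53.3% were lower and 11.7% at least 2-fold lower. With the GC trend removed the same 7 were called lower and none higher. Summed over the 9 genes, the level per kb was 3870 and 3832 normalised reads in the controls against 1934 and 1934 in cKO. Sema5a (chr15:32244810-32696341, GRCm38), a transmembrane semaphorin with thrombospondin repeats that is a known ligand of plexin-B3, had 9772 and 10191 normalised reads in the controls against 3189 and 2850 in cKO. Both cKO libraries lay far below both controls, and the difference was 3.31-fold (log2 difference -1.73, SE 0.04, adjusted p 3.14e-20 in limma). Sema4d (chr13:51685529-51793747), the ligand of plexin-B1 that is also known as CD100, had 4945 and 4980 normalised reads in the controls against 1790 and 1849 in cKO, 2.73-fold lower (log2 difference -1.45, SE 0.04, adjusted p 5.46e-19 in limma). Replicates of Sema4d lay much closer to each other than to the other genotype.

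The class 6 semaphorins, transmembrane ligands of the class A plexins, stood highest per kb of the family in the controls. Sema6a had 8540 and 8431 normalised reads in the controls against 3795 and 3961 in cKO, and Sema6d had 7788 and 7801 against 3691 and 3928. Their falls of 2.19-fold and 2.05-fold were of like size (log2 differences -1.13 and -1.03). Sema4c, which binds plexin-B2, went from 1933 and 1829 to 825 and 821 normalised reads, 2.28-fold lower. The steepest fall of the family was that of Sema3d, a secreted semaphorin, from 766 and 754 to 199 and 209 normalised reads, 3.73-fold lower (log2 difference -1.89, SE 0.09, adjusted p 8.81e-15 in limma). Each of these genes kept its direction and call in all 16 alternatives, with Sema3d at its smallest, -1.10, after removal of both the GC and the length trend.

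A few semaphorins behaved otherwise. Sema5b, the other listed class 5 gene, was only 1.22-fold lower, from 1701 and 1654 to 1466 and 1292 normalised reads, and was not called with relative log expression factors (log2 difference -0.09, limma adjusted p 0.33). Sema4b rose from 606 and 504 to 816 and 801, and Sema7a, a semaphorin anchored by a lipid to the membrane, from 446 and 428 to 640 and 625 normalised reads. Their log2 differences of 0.55 and 0.53 became 0.16 and 0.12, with no call, when the GC trend was removed. The class 3 genes Sema3a and Sema3f, and Plxna4 and Nrp1, which were to be described if listed, were not in the table.

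Plexins, the receptors of semaphorins, showed the reverse split. Of 9 plexin genes 8 were listed, 7 higher and 1 lower, beside 46.7% higher and 53.3% lower among all listed genes. With the GC trend removed 3 were called higher (Plxna2, Plxnb2 and Plxnc1), 1 lower and 4 not at all, Plxna1 and Plxnd1 lying below 0 (log2 differences -0.02 and -0.10). With GC content and length removed 6 were called higher and 1 lower. The gene that fell, Plxnb3 (chrX:73757090-73772514), was the highest plexin per kb in the controls. It had 9293 and 9950 normalised reads in the controls against 2886 and 2818 in cKO. Both cKO values lay far below both controls, the replicates of each genotype were close, and the difference was 3.37-fold (log2 difference -1.75, SE 0.04, adjusted p 3.06e-21 in limma), with a range over the alternatives from -2.13 to -1.56. Plxnb2 (chr15:89155549-89180788) rose from 6936 and 7328 to 11146 and 10781 normalised reads, 1.54-fold higher (log2 difference 0.62, SE 0.04, adjusted p 2.49e-13 in limma), and stayed higher, at 0.22, with the GC trend removed. Plxnb1, the receptor of Sema4d, rose from 6023 and 6580 to 9423 and 8523, 1.42-fold, and its log2 difference of 0.51 was 0.10, no longer called, with the GC trend removed.

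The order of the B-class plexins changed between the genotypes. In the controls Plxnb3 held 48.4% of their reads per kb in each library, followed by Plxnb2 (30.4% and 30.0%) and Plxnb1 (21.2% and 21.7%). In the cKO libraries Plxnb2 led with 50.3% and 51.4%, Plxnb1 came next with 34.2% and 32.7%, and Plxnb3 was last with 15.5% and 16.0%. The 8 plexins together had 4216 and 4420 normalised reads per kb in the controls against 4490 and 4292 in cKO, so that their summed level overlapped between genotypes under the authors' scaling. With relative log expression factors it did not overlap, at 4003 and 4186 against 4859 and 4650. The ratio of the plexin sum to the semaphorin sum, which no scaling of libraries alters, was 1.09 and 1.15 in the controls and 2.32 and 2.22 in cKO.

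**Figure D2:**
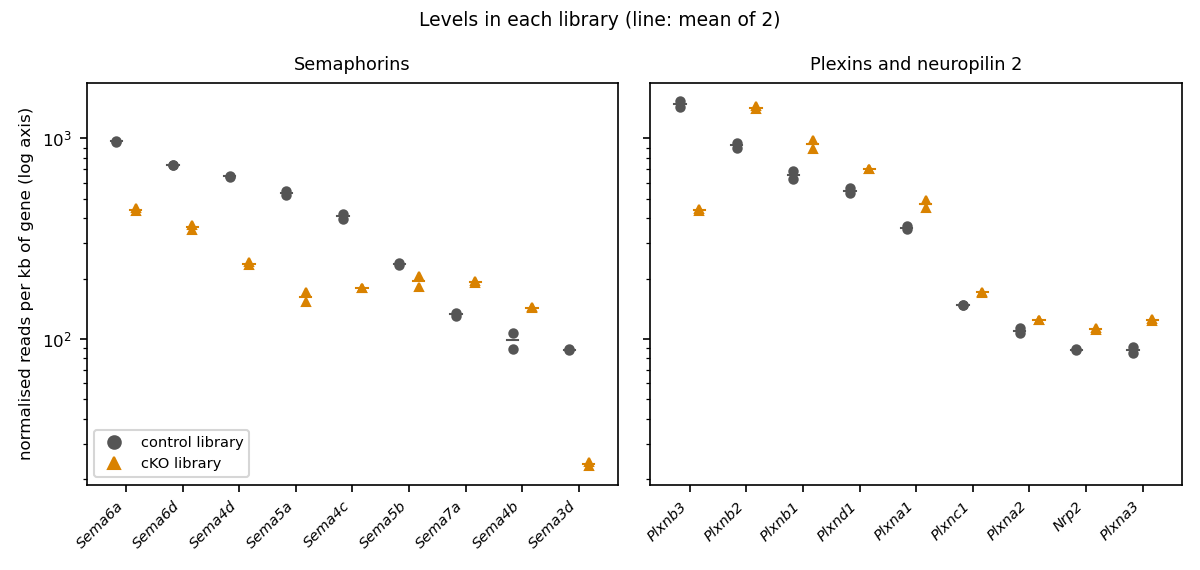
Normalised reads per kb of gene length (vertical log axis) of the 9 listed semaphorins, the 8 listed plexins and Nrp2 in each library (circles: 2 control, triangles: 2 cKO, lines: means), ordered by the control level. The abundant semaphorins and Plxnb3 drop while the other plexins and Nrp2 rise slightly.

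**Figure D3:**
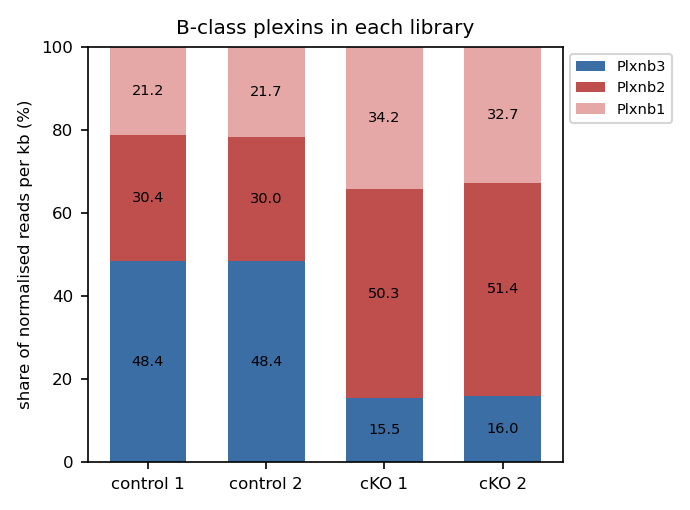
Share (%) of the summed normalised reads per kb held by Plxnb1, Plxnb2 and Plxnb3 in each of the 4 libraries. Plxnb3 goes from 48.4% in both controls to 15.5% and 16.0% in the cKO libraries.

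The remaining plexins changed by less. Plxna1, Plxna2 and Plxna3, which work with neuropilins or bind class 6 semaphorins directly, were 1.31-fold, 1.13-fold and 1.41-fold higher, but with the GC trend removed Plxna1 turned to -0.02 on the log2 scale and Plxna3 went from 0.49 to 0.14 and lost its call (limma adjusted p 0.167). Plxna2 changed least of the plexins, with 1836 and 1936 normalised reads in the controls against 2138 and 2139 in cKO, and lost its call without control 1 (log2 difference 0.14, limma adjusted p 0.0882). Plxnc1, the receptor of Sema7a, rose from 1230 and 1236 to 1428 and 1423, 1.16-fold, and Plxnd1, best known from blood vessels, from 4124 and 3904 to 5164 and 5158, 1.29-fold, with the turn under GC correction given above. Nrp2, a co-receptor of class 3 semaphorins, rose from 1055 and 1041 to 1319 and 1336 normalised reads (log2 difference 0.34, SE 0.06, adjusted p 1.91e-05 in limma), a call that held in all 16 alternatives. Ligands and receptors known to pair thus moved together for Sema5a and Plxnb3 (both lower). Sema7a and Plxnc1 were both higher, Sema7a not called with the GC trend removed. Sema4d and Plxnb1 moved apart, as did Sema4c and Plxnb2, with Plxnb1 likewise not called after that correction. Sema6a and Sema6d fell while the class A plexins Plxna1, Plxna2 and Plxna3 rose. Of these plexins only Plxna2 was still called higher with the GC trend removed.

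Promoter sequences, taken from RefSeq on GRCm38.p6, were present for 38 of the 48 members in 49 windows of 250 bases before a transcription start. Those of Plxnb3, of its class relative Plxnb2 that changed the opposite way, and of Sema5a, the ligand that fell with Plxnb3, are shown because they set a plexin that fell beside a relative that rose and a ligand that fell. Each runs 5′ to 3′ on the gene's strand and ends at the start, or where an annotated exon begins. Capitals mark matches on either strand to ACAAAG or ACAATG (bound by SOX factors), CAGCTG (an E-box), CTGGCAC (bound by MYRF) and TTCNNNGAA (bound by STAT factors), and the marked matches do not overlap.
Plxnb3, chrX:73756853-73757089, plus strand: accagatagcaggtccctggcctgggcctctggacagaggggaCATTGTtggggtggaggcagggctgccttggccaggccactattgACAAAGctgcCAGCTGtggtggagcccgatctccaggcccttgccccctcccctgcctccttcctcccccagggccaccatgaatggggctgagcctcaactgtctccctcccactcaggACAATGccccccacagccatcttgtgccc
Plxnb2, chr15:89180789-89181038, minus strand: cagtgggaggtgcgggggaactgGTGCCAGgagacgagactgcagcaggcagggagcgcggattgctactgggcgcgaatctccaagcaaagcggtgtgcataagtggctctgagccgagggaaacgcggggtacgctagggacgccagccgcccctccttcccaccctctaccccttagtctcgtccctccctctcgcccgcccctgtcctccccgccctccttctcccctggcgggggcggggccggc
Sema5a, chr15:32244563-32244809, plus strand: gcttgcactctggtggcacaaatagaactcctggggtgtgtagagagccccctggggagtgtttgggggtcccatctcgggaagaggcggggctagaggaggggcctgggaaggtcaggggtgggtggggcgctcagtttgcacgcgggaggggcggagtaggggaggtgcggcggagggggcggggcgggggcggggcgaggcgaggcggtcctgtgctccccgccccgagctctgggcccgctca

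The Plxnb3 window held 3 SOX matches, 207, 162 and 42 bases before the RefSeq start, and an E-box at 152 bases. These distances count from the end of the uncut window, at chrX:73757102. The stretch shown was cut before an annotated exon and ends at chrX:73757089, so the matches lie nearer to its end than these distances. Plxnb2 had 2 windows, of which the one shown held 1 MYRF match and the other, chr15:89173952-89174201, no match. The Sema5a window held none of these motifs. Over all members, ACAAAG was found in 4 of 24 windows of genes that fell and 2 of 25 of genes that rose, ACAATG in 3 and 3, and CAGCTG in 3 and 1. Over all 32851 windows of the reference, ACAAAG was in 16.5%, ACAATG in 10.7%, CAGCTG in 13.0%, CTGGCAC in 4.19% and TTCNNNGAA in 7.02%. Member windows held them in 12.2%, 12.2%, 8.16%, 6.12% and 2.04%, and such matches are letters in a window, not shown binding sites.

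In the netrin and RGM systems all 4 listed ligands (Ntn1, Ntn4, Rgma and Rgmb) were higher and all 4 listed receptors (Dcc, Unc5b, Unc5c and Neo1) lower in the cKO cells, where 46.7% and 53.3% of all listed genes were higher and lower, but Ntn1 and Rgma turned below 0 with the GC trend removed (log2 differences -0.08 and -0.21), and Neo1 turned above 0 with relative log expression factors (0.02). Dcc, the receptor that mediates attraction to netrin 1, had 585 and 677 normalised reads in the controls against 239 and 236 in cKO. The cKO values lay well under the lower control, 2.65-fold in the mean (log2 difference -1.40, SE 0.10, adjusted p 7.78e-12 in limma). Unc5c (chr3:141465216-141834924), a receptor of the repulsive response to netrin, fell from 713 and 771 to 225 and 230 normalised reads, 3.26-fold (log2 difference -1.70, SE 0.09, adjusted p 6.19e-14 in limma). Its relative Unc5b, the highest of the 3 per kb, fell from 1280 and 1307 to 691 and 762, 1.78-fold. These 3 falls held in all 16 alternatives, with Dcc at -0.90 and Unc5c at -1.03 when GC content and length were removed and Unc5b at -1.26 with the GC trend removed.

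Neogenin (Neo1), a relative of Dcc that also binds RGM proteins, was the most abundant receptor of this set at 8501 and 8596 normalised reads in the controls against 7421 and 7732 in cKO. The fall of 1.13-fold was small beside those of the other receptors, and it turned under 3 alternatives. Netrin 4, a laminin-binding netrin, rose from 695 and 715 to 1108 and 1117 normalised reads, 1.58-fold (log2 difference 0.66, SE 0.06, adjusted p 4.69e-09 in limma), which held in all 16. Netrin 1 went from 1228 and 1126 to 1578 and 1387, 1.26-fold higher, with the reversal given above. Rgma, a lipid-anchored ligand of neogenin, went from 4723 and 4668 to 5762 and 5426, 1.19-fold higher, but with the GC trend removed it was called lower (log2 difference -0.21, limma adjusted p 4.16e-05). Rgmb rose from 862 and 807 to 1051 and 958, 1.20-fold, in every alternative. The netrin-G genes, whose lipid-anchored products bind NGL proteins and not Dcc, moved apart. Ntng1 rose from 114 and 111 to 177 and 208 normalised reads and Ntng2 fell from 760 and 712 to 511 and 484, although 14.0% of the exon length of Ntng2 is shared with another listed gene on the same strand.

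In the ephrin and Eph system, the most abundant ligand and the most abundant receptor per kb both fell. Ephrin-B3 (Efnb3, chr11:69554092-69560205), which is present in myelin and inhibits axon growth, went from 1925 and 1908 to 1158 and 1125 normalised reads, 1.68-fold lower (log2 difference -0.75, SE 0.05, adjusted p 1.39e-11 in limma). Ephb1 (chr9:101922128-102354693), a receptor of B-type ephrins, went from 4355 and 4262 to 2138 and 2131, 2.02-fold lower (log2 difference -1.01, SE 0.04, adjusted p 4.93e-16 in limma). In both genes the replicates were much closer to each other than to the other genotype, and both calls held in all 16 alternatives. Epha4, which binds ephrins of both types, fell from 1667 and 1648 to 919 and 943 normalised reads, 1.78-fold, also in every alternative, though its log2 difference of -0.83 was -0.41 with GC content and length removed. Epha5 fell 1.64-fold under the authors' scaling, from 1688 and 1734 to 1057 and 1036, but its log2 difference went from -0.71 to -0.01 with the GC trend removed and to 0.15 with GC content and length removed.

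Other members of the same families started from lower levels, and all but Efna2, which fell, rose under the authors' scaling. Ephrin-B1 (Efnb1) went from 416 and 447 to 667 and 685 normalised reads, 1.57-fold, but its log2 difference of 0.65 was 0.23 with the GC trend removed and 0.20, not called, with GC content and length removed (limma adjusted p 0.0712). Ephrin-B2 (Efnb2) rose from 614 and 611 to 807 and 838, 1.34-fold. Ephb4, the receptor that pairs with ephrin-B2 in blood vessels, rose from 367 and 354 to 620 and 586, 1.67-fold, with a log2 difference of 0.74 that was 0.32 with the GC trend removed. Efna3 showed the largest rise of all 48 genes, 2.40-fold (log2 difference 1.26, SE 0.20, adjusted p 5.87e-06 in limma), but from only 78.0 and 54.0 to 180 and 138 normalised reads, and 14.1% of its exon length is shared with an antisense gene. Epha2 went from 101 and 94.7 to 158 and 177, and its log2 difference of 0.77 was not called with the GC trend removed (0.37, limma adjusted p 0.0943) or with GC content and length removed (0.41, limma adjusted p 0.063). Efna2 and Ephb6 lay nearest to the edge of the table, with adjusted p-values of 0.0459 and 0.0486 in the authors' deposited table. Efna2 went from 324 and 339 to 232 and 261 and was not called with relative log expression factors (limma adjusted p 0.105), and Ephb6 went from 417 and 451 to 558 and 532 and turned to -0.11 on the log2 scale with the GC trend removed. Of the reads per kb of the 3 ephrin-B genes, Efnb3 held 74.2% and 73.3% in the controls against 53.9% and 52.4% in cKO.

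**Figure D4:**
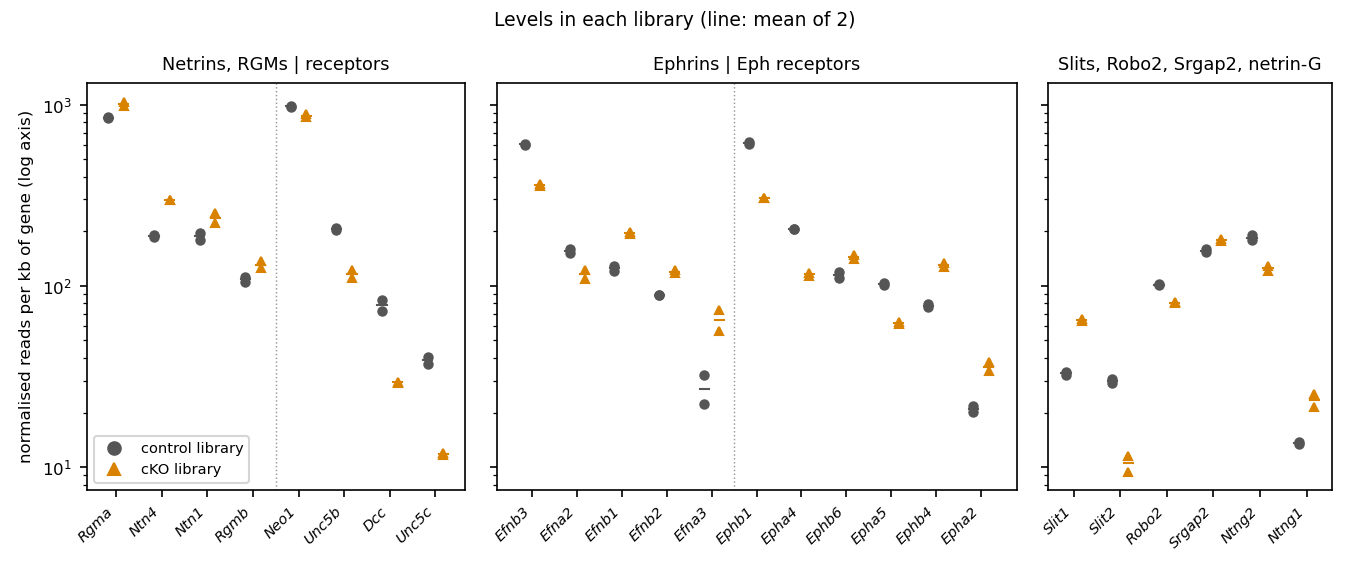
Normalised reads per kb of gene length (vertical log axis) of the netrin and RGM system, the ephrin and Eph system, and the Slit, Robo, srGAP and netrin-G genes in each library (circles: 2 control, triangles: 2 cKO, lines: means; dotted lines part ligands from receptors). Dcc, Unc5b, Unc5c, Efnb3, Ephb1 and Slit2 drop, and Slit1, Ntn4, Ephb4 and Efna3 rise.

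The listed Slit genes, secreted ligands of Robo receptors, started from like levels per kb and moved in opposite directions. Slit2 (chr5:47983138-48307733) had 782 and 737 normalised reads in the controls against 240 and 294 in cKO, 2.84-fold lower (log2 difference -1.51, SE 0.10, adjusted p 1.91e-12 in limma). Slit1 had 192 and 199 in the controls against 389 and 381 in cKO, 1.97-fold higher (log2 difference 0.98, SE 0.11, adjusted p 3.04e-08 in limma). As in every member, the genotypes did not overlap in either Slit gene. Both calls held in all 16 alternatives. Slit2 was at -0.85 when GC content and length were removed and Slit1 at 0.55 with the GC trend removed. Per kb, Slit1 held 51.3% and 53.6% of the reads of the pair in the controls against 87.5% and 84.8% in cKO. Robo2, the only listed Robo, went from 1732 and 1708 to 1379 and 1361, 1.26-fold lower, but turned to a called rise with the GC trend removed (log2 difference 0.23, limma adjusted p 9.67e-04). Srgap2, a GTPase-activating protein that binds Robo, rose 1.15-fold, from 1998 and 1935 to 2218 and 2290. Flrt3, a membrane protein that binds Unc5 receptors, was low, at 195 and 188 normalised reads in the controls against 115 and 96.1 in cKO, and was not called with the GC trend removed (limma adjusted p 0.212).

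The 4 listed CRMP genes encode tubulin-binding proteins that act downstream of semaphorins. These genes had control means from 149 (Dpysl5) to 1727 (Dpysl3) normalised reads per kb. They divided evenly, beside 46.7% higher and 53.3% lower among all listed genes. Dpysl2, the best known of them (CRMP2), fell from 2547 and 2521 to 1570 and 1768 normalised reads, 1.52-fold (log2 difference -0.60, SE 0.05, adjusted p 7.49e-10 in limma). Dpysl4 fell from 5232 and 5381 to 3745 and 3616, 1.44-fold. Dpysl3, the highest per kb, rose by a small amount, from 10671 and 10967 to 12403 and 12280, 1.14-fold. Dpysl5 rose from 1047 and 1147 to 1616 and 1476, 1.41-fold, and its log2 difference of 0.49 became 0.10, with no call, when the GC trend was removed. The other 3 genes kept direction and call in all 16 alternatives.

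The median GC content of the longest transcript was 54.2% for the members and 49.4% for all listed genes, and the median gene length 7191 against 4893 bases. Among all listed genes the share called higher went with GC content, from 9.80% of the 1734 genes lowest in GC content (31.0% to 44.1%) to 78.9% of the 1734 highest (54.5% to 72.8%). Members that rose had a median GC content of 56.6% and members that fell one of 49.0%. Plxnb3, Sema4c and Sema4d fell at a GC content of 56.0%, 57.1% and 53.4%, and removing the trend made their falls larger (log2 differences -2.13, -1.59 and -1.74). The same removal also shifted the GC-rich risers Plxna1, Plxnd1, Rgma, Ntn1 and Ephb6 downward, to below 0. The part of GC content in these differences was not tested otherwise. Exons of 10 of the 48 members share bases with another gene in GENCODE M21, from 0.617% of the length of Unc5c to 14.1% of that of Efna3, and because the strand setting of the counting is unknown those reads cannot be told apart.

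**Figure D5:**
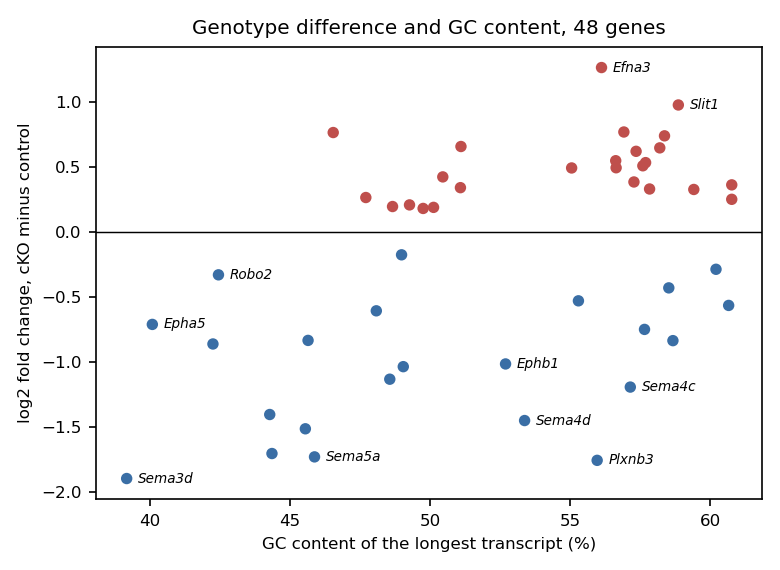
Log2 difference (cKO minus control, vertical axis) of the 48 members against the GC content of the longest transcript (%, horizontal axis), red above 0 and blue below. Genes under 46% GC lie below 0, and Plxnb3, Sema4c and Sema4d lie well below 0 at a GC content of over 53%.

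Genes that act with these families inside and at the surface of the cell were taken from separate lists. Among kinases and adaptors 16 of 21 were listed, 12 lower and 4 higher (median log2 difference -0.51). Fyn, a Src-family kinase of plexin, Eph and Dcc signalling that is also needed for myelination, fell from 23897 and 23978 to 10579 and 10832 normalised reads, and Pak3 fell 2.58-fold. Cytoskeletal effectors had 11 of 13 listed, 6 higher and 5 lower (median 0.07). Co-receptors, sheddases and other cues had 18 of 23 listed, 10 higher and 8 lower, from Dscam, a netrin receptor, at a log2 difference of -0.91 to the chemokine gene Cxcl12 at 1.39. Of the kinases and adaptors 75.0% were lower, of the cytoskeletal effectors 45.5%, and of the co-receptors, sheddases and other cues 44.4%. Among all listed genes 53.3% were lower, and no test of these differences was made.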

How the data were processed

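The authors deposited 1 table with, per the file headers, a normalised signal per gene and library, genotype means, a log2 fold change, p-values with adjusted p-values, and gene lengths. The submitters' processing notes name DESeq2 and the builds mm10 and GRCm38. For the aligner, counter, strand setting and annotation nothing is stated: not given in the sources used here. Values were whole multiples of 1 step per library (100% of 6940 values within 0.01 read), so whole reads were recovered. By the ratio of adjusted to raw p-values in the table, the authors adjusted over 17347 genes, of which 40.0% are listed, and the Benjamini-Hochberg adjustment here took the same number. Genotypes were compared with limma 3.58.1 (R 4.3.3) on log2(value + 1) with a variance trend, over the 4 libraries by genotype alone (2 residual degrees of freedom). All genes passed a filter of 1 normalised read in 2 libraries. edgeR 4.0.16 and DESeq2 1.42.0 on recovered reads were alternatives. GC content came from GENCODE M21 transcripts for 6934 genes, and its trend was removed per library by local regression, which also centres each library. The script was tested on simulated data. Members, lists and rules were chosen with earlier results of these data known. No column of other samples was present (0 columns). Values per library were to be given for members changed at least 2-fold, the highest per kb of each family, and members fixed by name. Same-numbered control and cKO libraries did not deviate together (correlation 0.0133 over 6940 genes). Some genes of the lists of associated genes are not reported here.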

Additional observations from a re-analysis of the deposited data

How the results depend on the processing

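Over the 48 members and 16 alternatives, 735 of 768 values kept direction and call, 19 lost the call and 14 turned. The median log2 fold change of the members, 0.19, was 0.377 with relative log expression factors, 0.377 in DESeq2, 0.255 with TMM factors, 0.255 in edgeR, 0.0288 with GC content and length removed and -0.0896 with the GC trend removed, where 15 members were higher. Leaving out 1 library gave medians from 0.157 to 0.192, with 25 members above 0 and 23 below in each fit. These fits leave 1 library in a genotype and 1 residual degree of freedom. Calls kept in them therefore do not measure the spread between replicates. Under the GC trend alone, the values that turned were Ephb6 -0.11, Ntn1 -0.0822, Plxna1 -0.0178, Plxnd1 -0.0971, Rgma -0.21 and Robo2 0.23. With GC content and length removed they were Epha5 0.15, Ephb6 -0.13, Neo1 0.0542, Plxnd1 -0.0171, Rgma -0.16 and Robo2 0.42. Neo1 also turned with relative log expression factors (0.0168) and in DESeq2 (0.0162). The cause was not tested. With the replicate number as a block (replicate block), 25 members were higher and 23 lower, with a median of 0.19, and 6938 of 6940 listed genes were called. In this balanced design the block leaves each log2 difference unchanged, so only calls could differ. Adjusted p-values of steep falls became far smaller with the block (Dcc 8.5e-44 against 7.78e-12, both in limma). Calls kept there are thus a weak check of the replicates. Pseudocounts of 0.5 and 5, the filters and the adjustment over listed genes only changed no member's call. Dropping the filter and adjusting over listed genes only could not have removed a call, so their part of the 735 was fixed in advance. The directions under the replicate block were fixed as well, and the filter of at least 10 removed no member. Genes under about 200 reads, such as Efna3 and Epha2, have the largest SE.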
